A study of Mus musculus with 16 samples.

Results

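The genes described here are 47 genes of B, T and NK lymphocytes, taken by their symbols from the 32989 genes measured in the liver and kidney of mice. Of these, 15 are B cell genes, 28 are T and NK cell genes, and 4 (Cd52, Ptprc, Ptprcap and Coro1a) are made by lymphocytes and by other leukocytes. All 47 symbols were found, each in 1 row per organ. The study asked what long-term circadian misalignment does to these organs. Bulk poly(A) RNA of whole liver and whole kidney was sequenced from 8 male C57BL/6J mice, which makes 16 libraries, 1 per organ and mouse. The 4 LD-conditioned mice (L63, L65, L86 and L104) lived under a light period from 8 to 20 o'clock. The 4 ADV-conditioned mice (A75, A91, A94 and A115) lived under a light cycle advanced by 8 h once every 4 days. Both groups had been kept so for 85 weeks and were 97 weeks old, and the labels give no genetic change in either group.

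Values are FPKM, fragments per kilobase of exon scaled to the fragments of the library, so that they are per length and can be set side by side between genes. The libraries held between 21092501 and 24285055 fragments on genes in the liver and between 15688495 and 18043306 in the kidney. For 1 kb of exon, a single fragment stood for up to 0.0440 FPKM in the liver and up to 0.0584 FPKM in the kidney, so that the low members rest on a few fragments. The labelled organs carried their own markers: Cps1, an enzyme of the urea cycle of hepatocytes, was listed at 0 in all kidneys and at 373 FPKM or above in all livers, and the kidney genes Slc34a1, Slc12a1, Aqp2 and Kap were listed at 0 in all livers. Of the 7 kidney genes measured, the others were not at 0 in every liver. Umod, a gene of the thick ascending limb, was at 1.33 FPKM in the liver of A94 and at most 0.0158 FPKM in the other livers. Together the 7 genes summed to 0.0253 to 0.138 FPKM in the livers other than A94. Some libraries stood apart over all genes. A94 had the highest value of 49.7% of all genes tested in the liver and of 26.2% in the kidney, where A75 had the highest value of 28.1%. The kidney of A115 had 33.8% mitochondrial fragments, where the LD kidneys had between 15.7% and 18%, and the group comparisons are therefore also given without A94 and, for the kidney, without A115 or A75.

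Mature lymphocytes are told apart by their antigen receptors. A B cell carries a membrane immunoglobulin that signals through CD79A and CD79B, a T cell carries a T cell receptor that signals through the CD3 chains and CD247, and NK cells have no rearranged receptor and kill with perforin and granzymes. The cytoplasmic tails of CD79 and CD3 chains hold tyrosine motifs, which a SRC family kinase (BLK in B cells, LCK in T cells) phosphorylates and which ZAP70 then binds in T cells, and adaptors such as BLNK and LAT pass the signal on. Liver and kidney hold resident T, B and NK cells, and in old mice aggregates of lymphocytes in both organs are common. In bulk RNA, more cells of a type and more RNA per cell cannot be told apart.

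Some of the members are neighbours in the genome (GRCm38/mm10). The CD3 genes lie side by side at chr9:44969572-44980431 (Cd3g, minus strand), chr9:44981786-44987052 (Cd3d, plus strand) and chr9:44998743-45009590 (Cd3e, minus strand), with 1354 bases between Cd3g and Cd3d, whose starts point away from each other. Cd28, Ctla4 and Icos, the costimulatory receptor, its inhibitory relative and the inducible one, follow each other at chr1:60746388-60773359, chr1:60909025-60915832 and chr1:60977914-61000320. Cd8b1 and Cd8a are 36 kb apart, Gzma and Gzmk 70.9 kb and Cd5 and Cd6 50.4 kb. RefSeq promoters (GRCm38.p6) were found for 31 of the 47 members, with 37 promoters in all. In the 250 bases before the start, a pair of short patterns known from B cell promoters was searched on both strands, the octamer ATGCAAAT, which OCT factors bind together with the product of Pou2af1, and CCCNNGGG, the core that EBF1 binds. The octamer was found in 1 of 11 promoters of B cell genes, in 0 of 22 of T and NK cell genes and in 0 of 4 of the others, where 1.60% of all 32851 promoters hold it. CCCNNGGG was found in 2 of 11, 3 of 22 and 1 of 4, where 11.8% of all promoters hold it. A match is no evidence of binding. The B cell promoters with a match and the one of Zap70 are printed, because Blnk and Zap70 are the members whose level in an organ departs most from that of the other lymphocyte genes and Cd22 had the largest difference in the kidney. Each run is 250 bases long, ends at the base before the start, is read 5′ to 3′ on the strand of the gene, and has the match in capitals.
Blnk (chr19:40994222-40994471, minus strand, octamer): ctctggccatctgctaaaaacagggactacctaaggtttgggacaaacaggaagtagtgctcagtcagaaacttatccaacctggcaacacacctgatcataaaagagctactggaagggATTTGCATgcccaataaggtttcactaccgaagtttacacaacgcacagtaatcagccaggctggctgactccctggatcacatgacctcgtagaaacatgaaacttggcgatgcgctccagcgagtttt
Cd22 (chr7:30879029-30879278, minus strand, CCCNNGGG): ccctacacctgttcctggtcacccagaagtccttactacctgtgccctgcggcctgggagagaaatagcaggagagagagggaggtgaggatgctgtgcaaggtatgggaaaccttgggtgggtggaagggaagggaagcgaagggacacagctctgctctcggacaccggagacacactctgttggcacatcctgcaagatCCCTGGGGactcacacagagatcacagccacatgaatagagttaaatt
Spib (chr7:44532072-44532321, minus strand, CCCNNGGG, overlapping matches): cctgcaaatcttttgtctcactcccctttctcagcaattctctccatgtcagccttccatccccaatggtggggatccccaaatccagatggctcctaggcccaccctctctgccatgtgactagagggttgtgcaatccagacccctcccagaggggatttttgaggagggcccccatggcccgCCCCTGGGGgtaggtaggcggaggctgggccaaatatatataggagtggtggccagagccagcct
Zap70 (chr1:36778734-36778983, plus strand, CCCNNGGG): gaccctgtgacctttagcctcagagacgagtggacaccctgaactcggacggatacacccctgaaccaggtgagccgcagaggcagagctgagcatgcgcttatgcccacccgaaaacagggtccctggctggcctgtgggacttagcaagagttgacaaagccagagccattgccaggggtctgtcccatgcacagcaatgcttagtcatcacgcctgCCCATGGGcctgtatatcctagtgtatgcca
The runs of Blnk and Cd22 lie inside the measured genes (chr19:40928927-40994535 and chr7:30865404-30880342), and that of Spib ends right before its gene. For Zap70 RefSeq lists 3 starts, and the printed run lies inside the measured gene (chr1:36764515-36782820), whereas the runs before the other starts, one of them that of the measured gene, hold no match.

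In the liver, nearly every lymphocyte gene had its highest value in 1 ADV mouse, A94. Of the 47 members, 46 were highest in A94, and the remaining one was Zap70. Relative to the mean of the LD mice on the log2(FPKM + 0.1) scale, A94 was at least 4-fold higher for 14 of 15 B cell genes, 23 of 28 T and NK cell genes and 4 of 4 shared genes, where 5.90% of the 12835 genes tested were. The members are counted here whether tested or not, and 35 of the 47 were tested, 12 of them only because of A94. The map of all members by mouse shows this column in both organs.

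**Figure D1:**
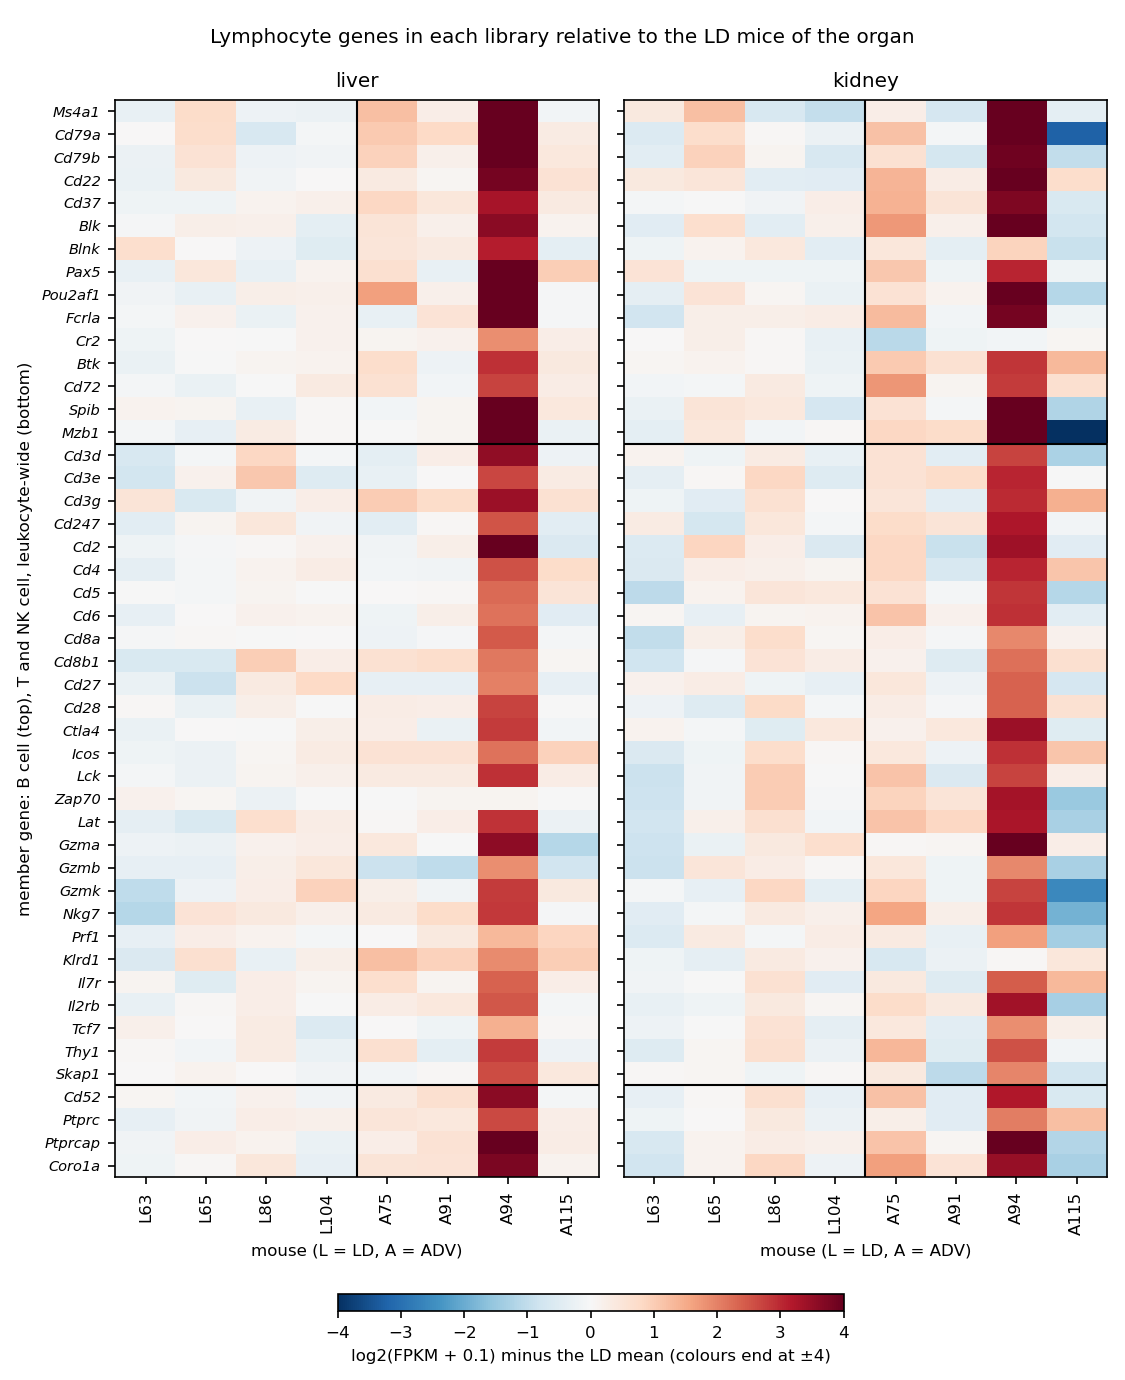
Each row is a member and each column a mouse, with the liver on the left and the kidney on the right; colours give log2(FPKM + 0.1) minus the mean of the 4 LD mice, and colours end at 4 in either direction. The column of A94 is red for 47 of 47 members in the liver and for 46 of 47 in the kidney, and Cd79a and Mzb1 are blue in the kidney of A115.

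Among the B cell genes of the liver, the receptor chains were first compared. Cd79a, which carries the signal of membrane immunoglobulin, was 0.541, 0.921, 0.302 and 0.494 FPKM in L63, L65, L86 and L104 and 1.20, 0.998, 19.8 and 0.685 FPKM in A75, A91, A94 and A115. Its partner Cd79b was 0.484, 0.944, 0.497 and 0.533 FPKM in L63, L65, L86 and L104 and 1.22, 0.706, 19.6 and 0.827 FPKM in A75, A91, A94 and A115. A94 stood 35-fold and 32-fold above the LD mean, A75 and A91 were above or within the LD range, and the groups overlapped for both chains. The difference between the groups was 1.79 ± 0.90 (limma p = 0.0761, adjusted p = 0.452, exact permutation p = 0.0571) for Cd79a and 1.60 ± 0.89 (limma p = 0.105, adjusted p = 0.478, exact permutation p = 0.0857) for Cd79b on the log2 scale. Ms4a1, which encodes the B cell surface protein CD20, was 0.229, 0.574, 0.251 and 0.239 FPKM in L63, L65, L86 and L104 and 0.834, 0.380, 12.6 and 0.273 FPKM in A75, A91, A94 and A115. A94 was 39-fold the LD mean, the LD mouse L65 exceeded A91 and A115, and limma gave an adjusted p = 0.503.

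Pou2af1, the coactivator that OCT factors need for immunoglobulin transcription, was 0.152, 0.127, 0.223 and 0.215 FPKM in L63, L65, L86 and L104 and 0.767, 0.220, 15.1 and 0.168 FPKM in A75, A91, A94 and A115. The difference was 1.90 ± 1.09 (limma p = 0.115, adjusted p = 0.489, exact permutation p = 0.143). Its value in A94 was 84.5-fold the LD mean, and A75 was also above all LD mice. Mzb1, a chaperone of the endoplasmic reticulum used in antibody assembly, was 0.453, 0.360, 0.633 and 0.498 FPKM in L63, L65, L86 and L104 and 0.474, 0.527, 33.2 and 0.382 FPKM in A75, A91, A94 and A115. Outside A94 its ADV and LD values were mixed, and it passed the filter on low values through A94. Cd37, a tetraspanin of mature B cells, was 0.467, 0.464, 0.600 and 0.628 FPKM in L63, L65, L86 and L104 and 1.03, 0.767, 6.16 and 0.714 FPKM in A75, A91, A94 and A115. It was the one B cell gene with every ADV liver above every LD liver, by 1.23 ± 0.58 (limma p = 0.0605, adjusted p = 0.439, exact permutation p = 0.0286), and this exact permutation p is the smallest that 4 mice against 4 allow.

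The other 9 B cell genes were low, between 0 and 1.48 FPKM over the 7 livers other than A94. In A94 the inhibitory receptor Cd22 was 4.34 FPKM (19.8-fold the LD mean), the kinase gene Blk 1.78 (31.4-fold), the adaptor Blnk 5.01 (9.83-fold) and the kinase gene Btk 3.15 (9.38-fold). Pax5, the factor that fixes B cell identity, was 1.87 FPKM in A94, where the other livers were between 0 and 0.144. Fcrla, an Fc receptor-like protein of B cells, was 4.87 FPKM in A94, the ETS factor Spib 4.21 and the receptor Cd72 6.66. Cr2, the complement receptor of follicular B cells, was 0.309 FPKM in A94 and at most 0.0348 elsewhere. Outside A94, Cd72 was the most abundant of these 9, and it had the smallest ratio of A94 to the LD mean, 7.02-fold.

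Among the T cell genes of the liver, the chains of the CD3 complex did not move alike outside A94, where they rest on few fragments. Cd3g was 0.643, 0.240, 0.374 and 0.522 FPKM in L63, L65, L86 and L104 and 0.946, 0.766, 5.47 and 0.700 FPKM in A75, A91, A94 and A115. Every ADV liver was above every LD liver, by 1.44 ± 0.58 (limma p = 0.0345, adjusted p = 0.395, exact permutation p = 0.0286). Cd3d was 0.0925, 0.184, 0.431 and 0.185 FPKM in L63, L65, L86 and L104 and 0.129, 0.261, 3.40 and 0.163 FPKM in A75, A91, A94 and A115. Cd3e was 0.0858, 0.241, 0.546 and 0.114 FPKM in L63, L65, L86 and L104 and 0.150, 0.212, 1.85 and 0.287 FPKM in A75, A91, A94 and A115. For these chains the LD mouse L86 was above A75, A91 and A115, so that the groups overlapped, with exact permutation p = 0.600 and 0.457. Cd3d and Cd3e passed the filter on low values only through A94. In the other livers Cd3d had 3 to 15 fragments, Cd3e 3 to 20.5 and Cd3g 6 to 22.5. Cd247, the zeta chain, was 0.0302, 0.0901, 0.141 and 0.0604 FPKM in L63, L65, L86 and L104 and 0.0316, 0.0800, 0.911 and 0.0319 FPKM in A75, A91, A94 and A115, which is 1 fragment in L63 and 28 fragments in A94, and it did not reach the filter on low values.

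The coreceptors were low as well. Cd4, which helper T cells carry and some macrophages too, was 0.146, 0.197, 0.247 and 0.284 FPKM in L63, L65, L86 and L104 and 0.194, 0.182, 1.75 and 0.419 FPKM in A75, A91, A94 and A115. Cd8a, of cytotoxic T cells, was 0.118, 0.130, 0.122 and 0.124 FPKM in L63, L65, L86 and L104 and 0.0957, 0.118, 1.13 and 0.110 FPKM in A75, A91, A94 and A115. Outside A94 the livers differed little for Cd8a, from 0.0957 to 0.130 FPKM, and in A94 the value was 9.13-fold the LD mean. Icos, the inducible costimulator of activated and follicular helper T cells, was 0.151, 0.137, 0.199 and 0.251 FPKM in L63, L65, L86 and L104 and 0.316, 0.319, 1.16 and 0.431 FPKM in A75, A91, A94 and A115. It was the member with the smallest p in the liver, 1.06 ± 0.37 (limma p = 0.0172, adjusted p = 0.363, exact permutation p = 0.0286), and the groups did not overlap. Lck, the kinase that starts the signal of the T cell receptor, was 0.367, 0.325, 0.434 and 0.465 FPKM in L63, L65, L86 and L104 and 0.529, 0.535, 3.68 and 0.502 FPKM in A75, A91, A94 and A115. The lowest ADV liver was just above the highest LD liver, and the difference was 0.98 ± 0.55 (limma p = 0.105, adjusted p = 0.478, exact permutation p = 0.0286).

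Il7r, the receptor for the survival cytokine IL-7, was 0.268, 0.139, 0.303 and 0.268 FPKM in L63, L65, L86 and L104 and 0.440, 0.263, 1.64 and 0.310 FPKM in A75, A91, A94 and A115. The difference was 0.86 ± 0.47 (limma p = 0.0988, adjusted p = 0.474, exact permutation p = 0.114). Klrd1, the CD94 chain of NK receptors, was 0.0950, 0.354, 0.133 and 0.237 FPKM in L63, L65, L86 and L104 and 0.571, 0.453, 0.971 and 0.476 FPKM in A75, A91, A94 and A115. All ADV livers exceeded all LD livers (exact permutation p = 0.029), but the values rest on 2 to 19 fragments and the gene was below the filter. Zap70 departed from all others, with 3.41, 3.24, 2.55 and 3.01 FPKM in L63, L65, L86 and L104 and 3.02, 3.29, 3.28 and 3.02 FPKM in A75, A91, A94 and A115, which is 3.05 ± 0.374 FPKM in the LD mice and 3.15 ± 0.152 FPKM in the ADV mice (mean ± SD, n = 4 each). It was the most abundant T cell gene in 7 of the 8 livers outside the shared genes, its difference between the groups was 0.052 ± 0.12 on the log2 scale, and A94 was 1.07-fold the LD mean.

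Of the other T and NK cell genes of the liver, all were highest in A94. Cd2, an adhesion receptor of T and NK cells, was 6.91 FPKM in A94 and between 0.189 and 0.418 FPKM in the others, and Lat, the adaptor that ZAP70 phosphorylates, was 3.04 FPKM against 0.178 to 0.575 FPKM. Of the cytotoxic genes, Gzma was 6.55 FPKM in A94 (14.3-fold the LD mean), Gzmk 1.31 (10.3-fold), Gzmb 1.56 (4.24-fold) and the perforin gene Prf1 0.268 (5.26-fold). For Prf1 the other livers ranged from 0.0199 to 0.168 FPKM, with A115 nearest to A94. Gzmb was the only one of the 35 tested members with a negative difference between the groups, −0.19 ± 0.60 (limma adjusted p = 0.902), and A75, A91 and A115 were the lowest livers at 0.151, 0.122 and 0.168 FPKM. The ratio of Gzmb to Gzma was 0.238, 0.275, 0.238 and 1.13 in A75, A91, A94 and A115, and in the LD livers it was between 0.695 and 0.927. Outside A94 these ratios rest on 4 to 18 fragments of Gzmb and 3 to 13 of Gzma. Tcf7, the factor of naive and memory T cells, had the smallest ratio of A94 to the LD mean after Zap70, with 2.89 FPKM in A94 and between 0.650 and 1.29 FPKM elsewhere. Ctla4, the inhibitory receptor that regulatory T cells carry, was 0.741 FPKM in A94 and at most 0.0443 FPKM in the others.

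Of the leukocyte-wide genes, Cd52 was the most abundant of all members in the liver. Cd52, a small glycoprotein of the leukocyte surface, was 9.66, 8.62, 10.5 and 8.31 FPKM in L63, L65, L86 and L104 and 11.9, 14.4, 113 and 8.78 FPKM in A75, A91, A94 and A115. Ptprc, the phosphatase CD45 of all nucleated blood cells, was 1.40, 1.62, 2.17 and 2.08 FPKM in L63, L65, L86 and L104 and 2.53, 2.44, 11.6 and 2.18 FPKM in A75, A91, A94 and A115. Every ADV liver was above every LD liver for Ptprc, by 0.95 ± 0.47 (limma p = 0.0752, adjusted p = 0.451, exact permutation p = 0.0286), and for Cd52 the lowest ADV liver, A115, was inside the LD range. Coro1a, an actin-binding protein of leukocytes, was 1.64, 1.89, 2.57 and 1.46 FPKM in L63, L65, L86 and L104 and 2.67, 2.72, 26.3 and 2.06 FPKM in A75, A91, A94 and A115. The difference was 1.24 ± 0.70 (limma p = 0.108, adjusted p = 0.480, exact permutation p = 0.0571). Ptprcap, a small protein bound to CD45, was 0.436, 0.601, 0.541 and 0.387 FPKM in L63, L65, L86 and L104 and 0.607, 0.769, 9.85 and 0.613 FPKM in A75, A91, A94 and A115, again without overlap.

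**Figure D2:**
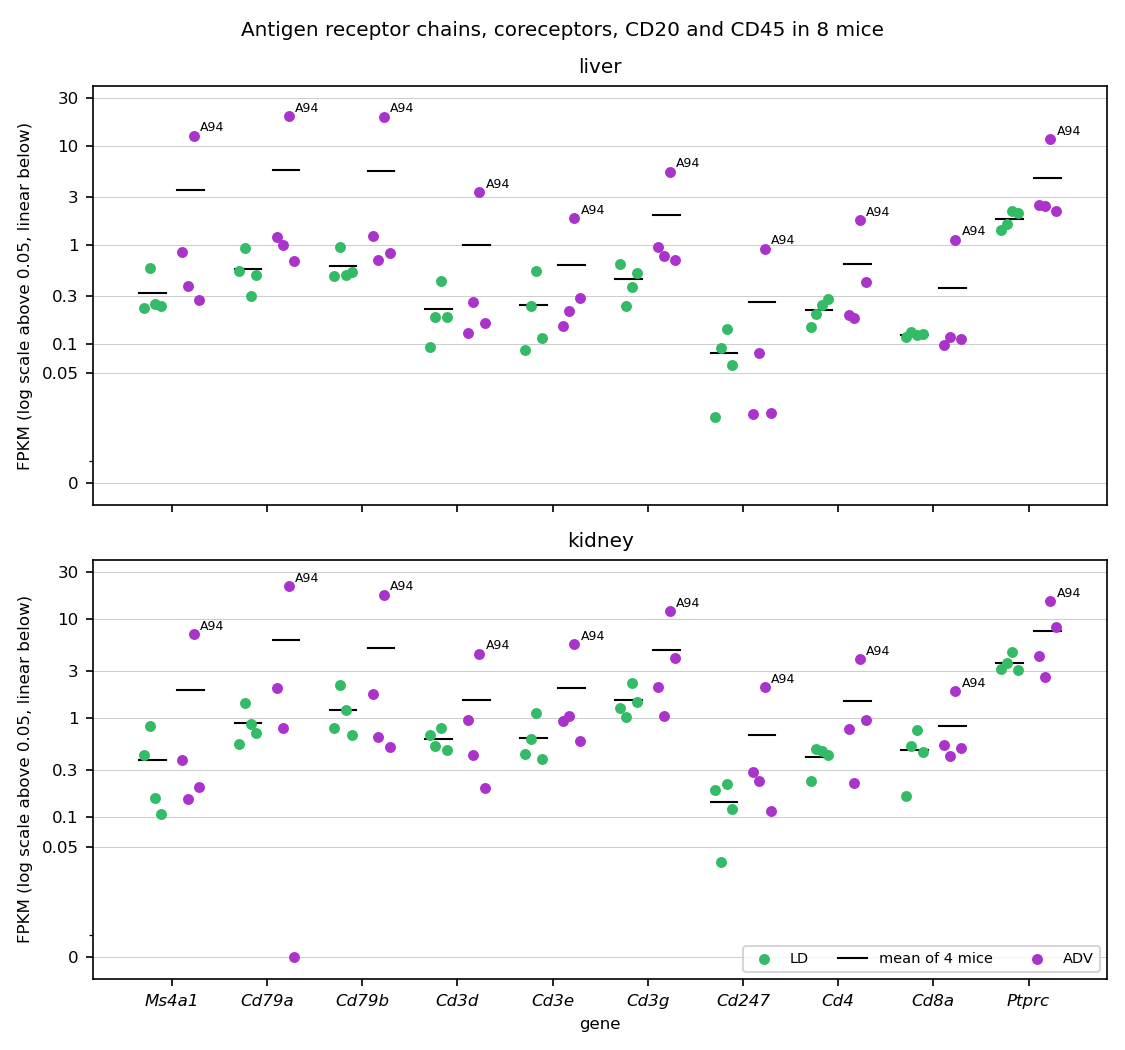
Each point is a mouse, green for LD and purple for ADV, the bar is the mean of the 4 mice of a group, and the axis is FPKM on a log scale above 0.05 and a linear one below it. In both organs the highest point of each gene is A94, and the means of the ADV group lie above most of its other points. Cd79a in the kidney of A115 is listed at 0.

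Tested over all genes, the liver gave few differences among the members, and none passed the adjusted threshold. Of the 47 members, 35 reached the filter on low values, and 12 of these reached it only because of A94. ADV was higher at an unadjusted limma p under 0.05 for 2 of the 35 (Cd3g and Icos), where 8.65% of all genes were, and lower for 0, where 3.13% were. With the adjusted p, 0 members passed, where 0.00779% of all genes did, which is 1 gene. The estimated difference was above 0 for 34 of the 35, and for 65.7% of all genes, which is a description, since 12 members entered the test through A94. The median difference was 1.20 for the B cell genes, 0.77 for the T and NK cell genes and 1.19 for the shared genes, where the median of all genes was 0.096 on the log2 scale. Without 1 mouse at a time the count at an unadjusted p under 0.05 was 6 without A91, 6 without A115, 5 without A94 and 1 without L65, L86 or L104. In either direction, 17.3% of all genes were below 0.05 without A91, 10.4% without A115 and 8.33%, 8.78% and 7.75% without L65, L86 and L104. Every ADV liver was above every LD liver for 7 of the 47 members (Cd37, Cd3g, Icos, Lck, Klrd1, Ptprc and Ptprcap), of which 6 were among the 35, where 6.94% of all genes were, and below for 0, where 1.89% were.

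In the kidney, A94 was again the highest mouse for 45 of the 47 members, and the exceptions were Cr2 and Klrd1. A94 was at least 4-fold above the LD mean on the log2(FPKM + 0.1) scale for 13 of 15 B cell genes, 22 of 28 T and NK cell genes and 4 of 4 shared genes, where 3.29% of the 14452 genes tested were. Again all members are counted, of which 43 were tested, 7 of them only because of A94. The other kidneys were less alike than the other livers: A75 lay above the LD mean for 45 of the 47 members, A91 for 18 and A115 for 16. Of all genes tested, 67.5%, 56.4% and 32.6% were above it in these kidneys.

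Btk, the kinase downstream of the B cell receptor, which myeloid cells also make, was 0.328, 0.348, 0.324 and 0.241 FPKM in L63, L65, L86 and L104 and 0.751, 0.517, 2.87 and 0.913 FPKM in A75, A91, A94 and A115. It was the only member with every ADV kidney above every LD kidney, by 1.46 ± 0.46 (limma p = 0.0131, adjusted p = 1.0, exact permutation p = 0.0286). Cd72, a B cell coreceptor, was 2.19, 2.24, 3.06 and 2.11 FPKM in L63, L65, L86 and L104 and 8.33, 2.59, 16.9 and 3.79 FPKM in A75, A91, A94 and A115. The difference was 1.33 ± 0.54 (limma p = 0.0379, adjusted p = 1.0, exact permutation p = 0.0571). Here A91 lay inside the LD range, between L65 and L86, and A75 was the second highest. Cd22 was 0.126, 0.143, 0.0285 and 0.0270 FPKM in L63, L65, L86 and L104 and 0.340, 0.111, 7.11 and 0.179 FPKM in A75, A91, A94 and A115. It had the largest estimated difference of the members, 1.92 ± 1.04 (limma p = 0.102, adjusted p = 1.0, exact permutation p = 0.0857), and the groups overlapped.

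The receptor chains Cd79a and Cd79b were spread over both groups. Cd79a was 0.546, 1.44, 0.881 and 0.709 FPKM in L63, L65, L86 and L104 and 2.04, 0.791, 21.6 and 0 FPKM in A75, A91, A94 and A115. Cd79b was 0.800, 2.19, 1.21 and 0.675 FPKM in L63, L65, L86 and L104 and 1.75, 0.646, 17.7 and 0.512 FPKM in A75, A91, A94 and A115. A94 was 24.2-fold and 14.5-fold the LD mean, whereas A115 was listed at 0 for Cd79a and was the lowest mouse for Cd79b. The differences were 0.60 ± 1.41 (limma p = 0.682, adjusted p = 1.0, exact permutation p = 0.657) and 0.71 ± 1.02 (limma p = 0.504, adjusted p = 1.0, exact permutation p = 0.771). Mzb1 was 1.43, 2.66, 1.74 and 1.99 FPKM in L63, L65, L86 and L104 and 3.48, 3.23, 54.9 and 0 FPKM in A75, A91, A94 and A115. For Mzb1, A75, A91 and A94 were all above the LD kidneys and A115 had no fragment. A count of 0 in that library allows up to 0.174 FPKM at 3 fragments, and the LD kidneys were above this. Cd37 was 0.630, 0.668, 0.597 and 0.826 FPKM in L63, L65, L86 and L104 and 1.95, 1.0, 10.1 and 0.412 FPKM in A75, A91, A94 and A115. Ms4a1 was 0.427, 0.827, 0.156 and 0.108 FPKM in L63, L65, L86 and L104 and 0.379, 0.152, 7.03 and 0.204 FPKM in A75, A91, A94 and A115. For both genes A94 was the highest, 14.9-fold and 18.5-fold the LD mean. For Cd37, A75 and A91 were also above all LD kidneys, and for Ms4a1 the LD mouse L65 was the second highest of all.

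Blnk, the B cell adaptor, was the most abundant B cell gene in each kidney other than A94, and Cd72 came near it in A75 and A115. It was 7.39, 9.21, 11.2 and 6.13 FPKM in L63, L65, L86 and L104 and 11.3, 6.28, 15.5 and 4.46 FPKM in A75, A91, A94 and A115, and A94 was 1.83-fold the LD mean, with a difference of 0.02 ± 0.40 (limma adjusted p = 1.0). Cr2 was 0.233, 0.283, 0.235 and 0.169 FPKM in L63, L65, L86 and L104 and 0.0539, 0.192, 0.205 and 0.245 FPKM in A75, A91, A94 and A115, so that A94 lay inside the LD range. Blk, Pou2af1, Fcrla and Spib were between 0 and 0.976 FPKM outside A94 and between 3.79 and 17 FPKM in A94. Pax5 was 0.826 FPKM in A94 and was listed at 0 in L65, L86, L104, A91 and A115, and a count of 0 allows up to 0.146 FPKM.

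Among the T and NK cell genes of the kidney no member passed the unadjusted threshold. Cd3e was 0.433, 0.614, 1.12 and 0.386 FPKM in L63, L65, L86 and L104 and 0.933, 1.05, 5.58 and 0.585 FPKM in A75, A91, A94 and A115. The difference was 1.09 ± 0.65 (limma p = 0.133, adjusted p = 1.0, exact permutation p = 0.20). Cd3g was 1.27, 1.04, 2.29 and 1.46 FPKM in L63, L65, L86 and L104 and 2.08, 1.06, 12.2 and 4.09 FPKM in A75, A91, A94 and A115. The difference was 1.12 ± 0.67 (limma p = 0.134, adjusted p = 1.0, exact permutation p = 0.229). For Cd3g the kidney of A115 was the second highest, and for the neighbouring Cd3d it was not. Cd3d was 0.681, 0.529, 0.791 and 0.478 FPKM in L63, L65, L86 and L104 and 0.964, 0.427, 4.50 and 0.197 FPKM in A75, A91, A94 and A115, and A115 was the lowest of the 8. Cd247 was 0.191, 0.0432, 0.215 and 0.122 FPKM in L63, L65, L86 and L104 and 0.288, 0.230, 2.07 and 0.116 FPKM in A75, A91, A94 and A115. Icos was 0.0317, 0.0719, 0.215 and 0.102 FPKM in L63, L65, L86 and L104 and 0.162, 0.0696, 1.38 and 0.321 FPKM in A75, A91, A94 and A115. They were 14.5-fold and 13.2-fold the LD mean in A94, the groups overlapped, and the exact permutation test gave p = 0.171 and 0.20. Zap70, which was even in all livers, followed the other genes in the kidney, with 0.0575, 0.156, 0.467 and 0.172 FPKM in L63, L65, L86 and L104 and 0.421, 0.303, 2.69 and 0 FPKM in A75, A91, A94 and A115.

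Of the coreceptors in the kidney, Cd4 was 0.234, 0.492, 0.472 and 0.429 FPKM in L63, L65, L86 and L104 and 0.783, 0.220, 4.00 and 0.965 FPKM in A75, A91, A94 and A115. Cd8a was 0.165, 0.523, 0.755 and 0.458 FPKM in L63, L65, L86 and L104 and 0.533, 0.416, 1.90 and 0.501 FPKM in A75, A91, A94 and A115. A94 was 9.83-fold the LD mean for Cd4 and 4.00-fold for Cd8a, and its ratio of Cd4 to Cd8a was 2.10, with 1.47, 0.529 and 1.92 in A75, A91 and A115, where the LD kidneys had 0.625 to 1.42. In the livers the same ratio was 2.03, 1.55, 1.56 and 3.799 in A75, A91, A94 and A115. The LD livers had 1.24 to 2.29, so that A115 lay above them, on 30 fragments of Cd4 and 8 of Cd8a. The cytotoxic genes Gzma, Gzmb, Gzmk, Prf1 and Nkg7 were 21.3, 5.11, 7.11, 4.27 and 7.73 times the LD mean in A94. Klrd1 was 0.929, 0.815, 1.39 and 1.22 FPKM in L63, L65, L86 and L104 and 0.646, 0.887, 1.09 and 1.49 FPKM in A75, A91, A94 and A115. It was the only T or NK cell gene of the kidney at the LD level in A94, 1.0-fold, and the highest kidney was A115.

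Of the leukocyte-wide genes, Cd52 was 13.9, 18.3, 27.3 and 14 FPKM in L63, L65, L86 and L104 and 39.9, 13, 162 and 11.5 FPKM in A75, A91, A94 and A115 in the kidney. Coro1a was 2.36, 4.55, 7.38 and 3.56 FPKM in L63, L65, L86 and L104 and 13, 6.04, 46.5 and 1.63 FPKM in A75, A91, A94 and A115. For both genes A94 was highest, A75 came next and A115 was the lowest mouse. The differences were 0.82 ± 0.79 (limma p = 0.328, adjusted p = 1.0, exact permutation p = 0.514) and 1.09 ± 0.91 (limma p = 0.264, adjusted p = 1.0, exact permutation p = 0.371). Ptprc was 3.18, 3.61, 4.72 and 3.06 FPKM in L63, L65, L86 and L104 and 4.27, 2.61, 15.3 and 8.39 FPKM in A75, A91, A94 and A115

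In the kidney 43 of the 47 members reached the filter, 7 of them only because of A94. ADV was higher at an unadjusted limma p under 0.05 for 2 of the 43 (Btk and Cd72), where 1.75% of all genes were, and lower for 0, where 1.35% were. No gene of the organ passed with the adjusted p (0%). The estimated difference was above 0 for 41 of the 43, and for 46.4% of all genes, and its median was 0.94 for the B cell genes, 0.81 for the T and NK cell genes and 0.96 for the shared genes, where that of all genes was −0.024. The count at an unadjusted p under 0.05 was 7 without A91 and 12 without A115, and without L63, L65, L104, A75 or A94 it was 1. In either direction, 5.98% of all genes were below 0.05 without A91, 37.1% without A115 and 1.20%, 1.37%, 1.40% and 2.25% without L63, L65, L104 and A75. Without A75 the median was 1.11 for the B cell genes and 0.78 for the T and NK cell genes. Btk was the 1 member without overlap, where 0.962% of all genes had every ADV kidney above every LD kidney and 1.83% below.

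Since A94 was the highest mouse for nearly all members in both organs, its libraries were described member by member. Relative to the LD mean in FPKM, the median ratio of A94 was 25 over the 15 B cell genes of the liver, 8.35 over the 28 T and NK cell genes and 13.1 over the 4 shared genes. In the kidney these medians were 19, 7.55 and 9.62. The largest ratios belonged to B cell genes, 84.5 for Pou2af1 and 68.4 for Mzb1 in the liver and 87.5 for Cd22 in the kidney. Pax5 is left out of this order, since it had 3 fragments over the 4 LD livers against 51 in A94, and in the kidney 1.5 against 19.5. The FPKM of the B cell genes summed to 139 in the liver of A94 and to 4.76 to 9.15 in the other livers, and those of the T and NK cell genes to 69.1 and to 9.68 to 12.7. The B cell sum was thus 2.01 times the T and NK cell sum in A94, where the other livers had 0.380 to 0.722. In the kidney this ratio was 1.69 in A94 and 0.696 to 1.53 elsewhere, and without Blnk and Zap70, which were each high in all mice of 1 organ, it was 1.59 in A94 and 0.418 to 0.891 in the other kidneys.

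In A94, 46 of the 47 members were above the LD mean in both organs, where 75.8% of all genes were in the liver and 69.4% in the kidney. On the log2(FPKM + 0.1) scale, the difference of A94 from the LD mean in the liver and in the kidney had a Pearson correlation of 0.667 over the 47 members, 0.722 over the 15 B cell genes and 0.386 over the 28 T and NK cell genes. This is a description of 1 mouse, and the genes are not independent of each other. The median difference was 3.98 and 3.89 in liver and kidney for the B cell genes and 2.54 and 2.78 for the T and NK cell genes. The median of all genes tested was 0.28 and 0.24.

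**Figure D3:**
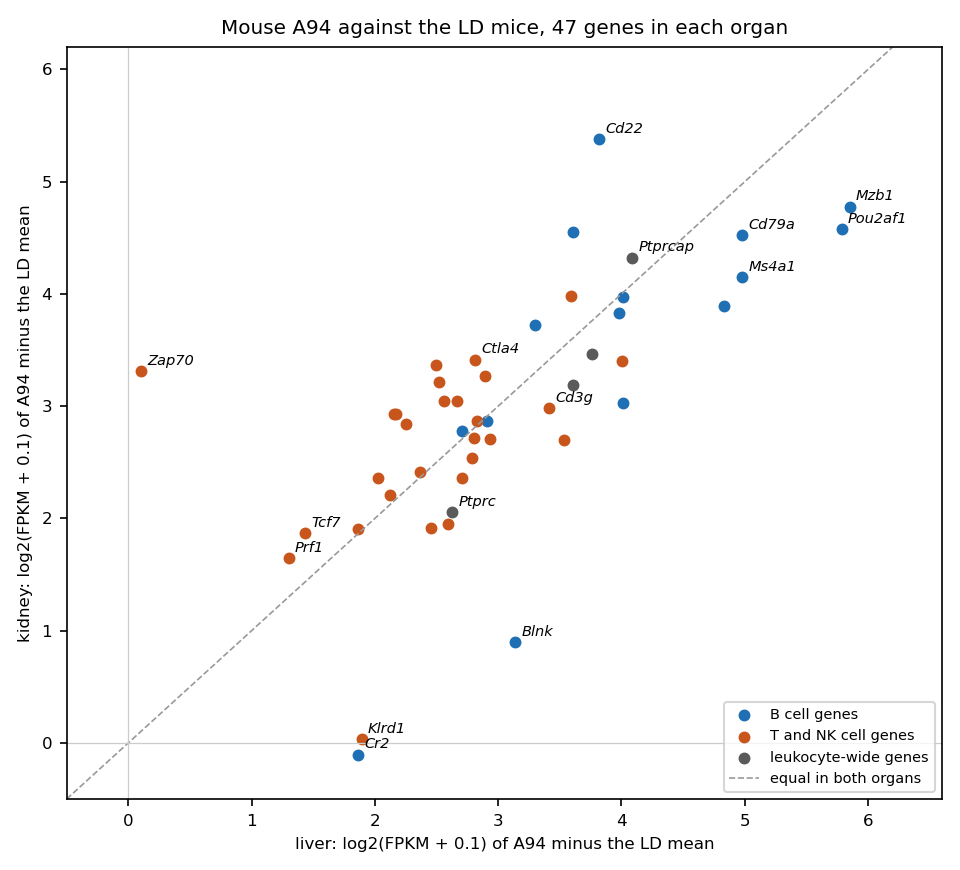
Each point is a member, placed by the difference of A94 from the LD mean on the log2(FPKM + 0.1) scale in the liver (horizontal) and in the kidney (vertical), with B cell, T and NK cell and shared genes in separate colours. Most B cell genes lie farthest to the upper right, Zap70 lies at 0.11 in the liver and 3.31 in the kidney, and Cr2 and Klrd1 lie at −0.10 and 0.032 in the kidney.

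The comparison was run again without A94, which leaves 3 ADV mice and changes which genes reach the filter. In the liver 23 members were then tested, 22 of them had a difference above 0, and the exception was Tcf7, where 54.1% of all genes were above 0. The differences were smaller, with a median of 0.39 for the B cell genes and 0.27 for the T and NK cell genes, where that of all genes was 0.025. At an unadjusted limma p under 0.05, ADV was higher for 5 of the 23, where 8.80% of all genes were, and lower for 0 (5.66%). These were Cd79a (0.72, adjusted p = 0.320), Cd37 (0.54, adjusted p = 0.240), Cd3g (0.78, adjusted p = 0.242), Icos (0.69, adjusted p = 0.211) and Ptprc (0.39, adjusted p = 0.336) in limma. With the adjusted p, 0 members passed, where 0.00797% of all genes did, and the smallest of the 5 was 0.211, and with the libraries rescaled by the median ratio 3 of them (Cd37, Cd3g and Icos) were still below 0.05 unadjusted.

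In the kidney without A94, 20 of 36 members were above 0, where 35.7% of all genes were. The median was −0.25 for the B cell genes and 0.11 for the T and NK cell genes, and that of all genes −0.099. Only Btk was below 0.05 unadjusted (0.99, limma adjusted p = 0.999), where 0.847% of all genes were higher and 0.861% lower. Cd72 then had 0.85 with an adjusted p = 0.999 in limma. The sign turned for 14 of the tested members, among them Cd79a (0.60 with A94 and −0.71 without) and Mzb1 (0.50 and −0.92).

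**Figure D4:**
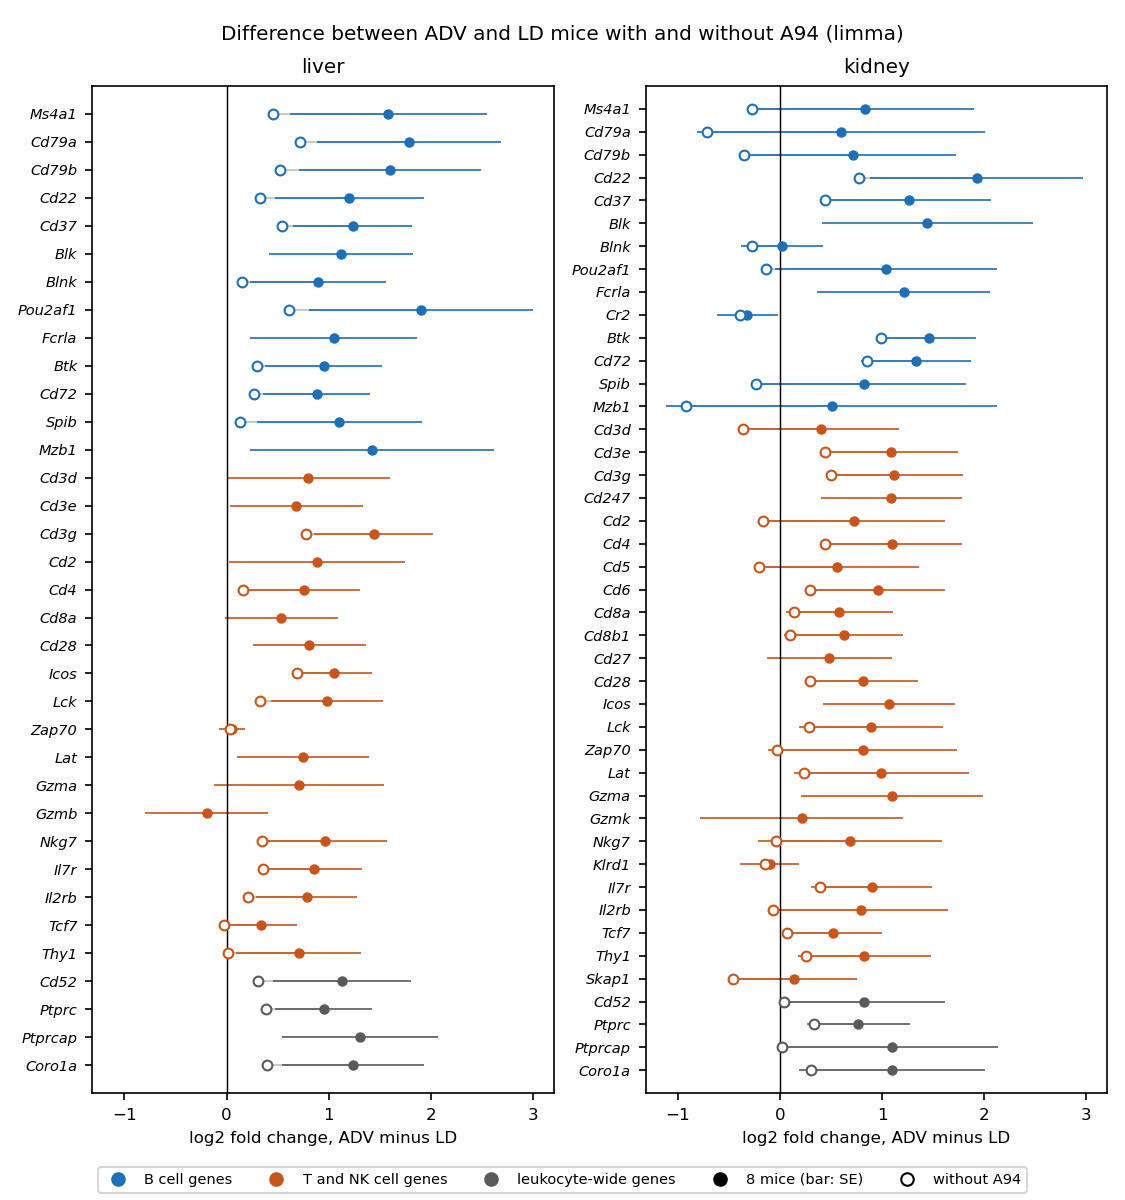
For each member tested in both fits, the difference between ADV and LD (log2(FPKM + 0.1) scale) is drawn with all 4 ADV mice and without A94, with the liver and the kidney in separate panels. Bars are the SE of the fit with 8 mice. Without A94 the values are lower, and 1 of 23 members in the liver and 16 of 36 in the kidney lie below 0.

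The kidney of A115 departed in another way. It was the lowest of the 8 kidneys for 22 of the 47 members. The share of all genes lowest in this kidney was not counted, but only 32.6% of all genes tested lay above the LD mean in it. It was listed at 0 for 9 of the 47 members (Cd79a, Blk, Pax5, Mzb1, Ctla4, Zap70, Gzmb, Gzmk and Prf1), where at most 2 were at 0 in any other kidney. Of all genes tested, 2.73% were at 0 in this library and at most 0.138% in the others. Pax5, Ctla4, Gzmb and Prf1 were not among the genes tested in the kidney, so that these shares are no like measure for them. At the same time 10 members were above all LD kidneys in A115. Over all genes tested this share was at least 19.1%, since A115 had the highest value of the 8 kidneys for 19.1%. Of the 10 members, 6 (Btk, Cd3g, Icos, Klrd1, Il7r and Ptprc) were in the lowest tercile of GC content, 4 (Cd22, Cd72, Cd4 and Cd8b1) in the middle one and 0 in the highest. The GC content of the transcripts moved with this. Over all genes, the median difference of A115 from the LD mean was 0.25 in the tercile of lowest GC content, −0.51 in the middle tercile and −1.59 in the highest tercile on the log2 scale. Over the members it was 0.45 for the 13 of the lowest tercile, of which 9 lay above the LD mean, −0.31 for the 18 of the middle tercile and −1.19 for the 16 of the highest tercile, of which 1 lay above it. In A94 the members' medians were 2.42, 2.95 and 3.34, all well above 0. Over all genes, the medians of these terciles were −0.046, 0.19 and 0.60 in A94 and −0.14, 0.24 and 0.64 in A75. GC content was found for 96.4% of the genes tested in the kidney, and its part in the values was not tested. Without A115, the median difference in the kidney was 1.61 for the B cell genes and 1.09 for the T and NK cell genes, where that of all genes was 0.20, and ADV was higher at an unadjusted limma p under 0.05 for 12 of 43 members tested, where 29.5% of all genes were. With the adjusted p, 0 members passed, where 18.8% of all genes did. Btk had the smallest adjusted p of the members then, 0.0619 in limma, with a difference of 1.51.

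**Figure D5:**
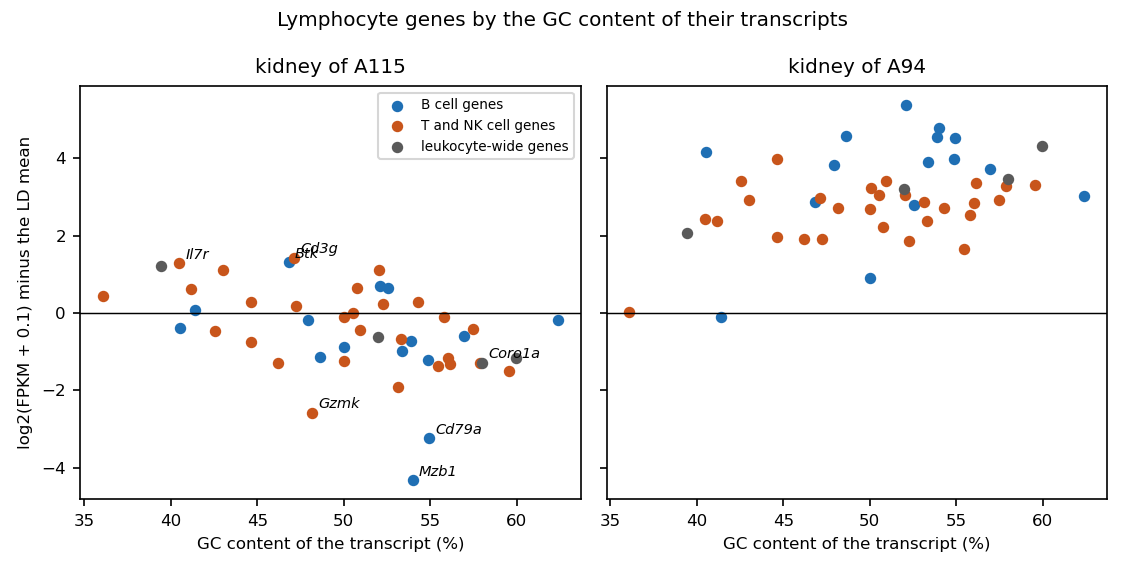
Each point is a member in the kidney, placed by the GC content of its transcript in percent (horizontal) and by the difference of A115 or A94 from the LD mean on the log2(FPKM + 0.1) scale (vertical). The points of A115 go from above 0 at low GC content to below 0 at high GC content, and those of A94 lie above 0 along the whole axis apart from Cr2.

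Among the LD mice, no single mouse led in all lymphocyte genes. In the kidney, L65 was the highest LD mouse for 10 of 15 B cell genes, and L86 for 19 of 28 T and NK cell genes and for 4 of 4 shared genes. The share of all genes with each LD kidney highest was not counted. Of all genes tested in the kidney, 65.4% lay above the LD mean in L86 and 41.2% to 45.7% in L63, L65 and L104. The B cell sum was highest in L65 (21.8 FPKM) and the T and NK cell sum in L86 (21.7 FPKM), with lowest values of 14 and 10.5 FPKM in the group. In the livers the same mice led, with 5.90 FPKM for B cell genes in L65 and 12.5 FPKM for T and NK cell genes in L86. Of the ADV mice other than A94, A75 had the highest B cell sum in both organs, 9.15 and 33 FPKM, above all LD mice.

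The organs were compared within the LD mice, with all 16 libraries in 1 limma fit. In the kidney 4 of the 44 members tested were higher and 1 was lower at an adjusted p under 0.05, where 55.5% and 11.1% of all genes were. Blnk was 0.510 ± 0.228 FPKM in the liver and 8.47 ± 2.19 FPKM in the kidney (mean ± SD, n = 4 LD mice each), a difference of 3.85 ± 0.60 (SE) on the log2 scale. Klrd1 was 0.205 ± 0.116 FPKM in the liver and 1.09 ± 0.262 FPKM in the kidney (2.01 ± 0.31). Cr2 was 0.0129 ± 0.0108 FPKM in the liver and 0.230 ± 0.0468 FPKM in the kidney (1.54 ± 0.35). Skap1, an adaptor that couples the T cell receptor to integrins, was 0.0942 ± 0.0151 FPKM in the liver and 0.431 ± 0.0380 FPKM in the kidney (1.45 ± 0.61, limma adjusted p = 0.0473), but with the libraries scaled by the median of their gene-wise ratios (median-ratio scaling) the difference was 0.92 and the limma adjusted p = 0.156. Zap70 was the member lower in the kidney, with 3.05 ± 0.374 FPKM in the liver and 0.213 ± 0.177 FPKM in the kidney (−3.48 ± 0.69). The spread in this fit holds both groups, and with it the distance of A94. With the mouse as a replicate block, which compares the organs of the same animal, 22 members were higher and 4 lower, where 56.3% and 11.4% of all genes were. Without a block, 7 members differed without A91, where 65.6% of all genes did, and 20 differed without A94, where 69.1% of all genes did. With the block, the 4 lower ones were Zap70, Gzma, Gzmb and Cd22. The median of the members was 0.73 and that of all genes 0.80. With median-ratio scaling these medians were 0.099 and 0.055. Under that scaling 3 members were higher (Blnk, Klrd1 and Cr2), where 30.2% of all genes were. There 3 were lower, where 24.7% of all genes were, namely Zap70, Tcf7 (limma adjusted p = 0.0354) and Gzmb (limma adjusted p = 0.0482).

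Whether the difference between ADV and LD was unlike in the organs was tested as an interaction. Klrd1 was the 1 member of 44 with an unadjusted p under 0.05 (−1.36 ± 0.44 for kidney minus liver, limma adjusted p = 1.0), where 3.71% of all genes were and 0% passed the adjusted threshold. With the replicate block, Cd79b was below 0.05 as well (−0.89), where 3.47% of all genes were.

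Further lymphocyte genes that are not members were measured the same way. Of 16 other B cell genes 13 were in the tables, and they summed to 2.12 to 2.55 FPKM in the LD mice, 29.4 FPKM in A94 and 2.80 to 3.02 FPKM in the other ADV mice in the liver and to 3.04 to 4.61 FPKM in the LD mice, 38.3 FPKM in A94 and 3.10 to 7.03 FPKM in the other ADV mice in the kidney. Cd180, a receptor of B cells and macrophages, was 0.580, 0.489, 0.491 and 0.685 FPKM in L63, L65, L86 and L104 and 0.846, 0.884, 4.22 and 1.10 FPKM in A75, A91, A94 and A115 in the liver. There was no overlap (1.18 ± 0.44, limma p = 0.0257, adjusted p = 0.384, exact permutation p = 0.0286). Cd180 was the 1 of 9 tested in the liver with an unadjusted p under 0.05, and in the kidney 0 of 10 were. Of all genes, 8.65% in the liver and 1.75% in the kidney were higher at this threshold. Only through A94 did 5 of the 9 and 6 of the 10 reach the filter. The 7 plasma cell genes found, of 15, summed to 10.8 to 29.4 FPKM in the LD mice, 920.4 FPKM in A94 and 5.86 to 33.7 FPKM in the other ADV mice in the liver. In the kidney they summed to 60.0 to 114 FPKM in the LD mice, 1563 FPKM in A94 and 20.2 to 93.5 FPKM in the other ADV mice. Jchain, which joins the units of secreted IgA and IgM, was 3.66, 5.33, 8.40 and 3.06 FPKM in L63, L65, L86 and L104 and 9.90, 15.5, 600.1 and 3.21 FPKM in A75, A91, A94 and A115 in the liver, and 0 of 6 and 0 of 6 of these genes were below 0.05 in liver and kidney. Of 12 genes of germinal centres 11 were found, and A94 was at least 4-fold above the LD mean on the log2(FPKM + 0.1) scale for 2 in the liver and 3 in the kidney, with 0 of 5 and 0 of 6 below 0.05.

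Of 10 genes reported in senescence-associated T cells, 0 of 4 tested were higher at an unadjusted p under 0.05 in the liver and 1 of 8 in the kidney, where 8.65% and 1.75% of all genes were. Of the 8 in the kidney, 4 reached the filter only through A94, and without A94 0 were below 0.05. The gene higher in the kidney was Tox, a factor of exhausted and age-associated T cells, which was 0.236, 0.524, 0.471 and 0.116 FPKM in L63, L65, L86 and L104 and 0.596, 0.616, 1.16 and 0.560 FPKM in A75, A91, A94 and A115 in the kidney, without overlap (1.0 ± 0.40, limma p = 0.0355, adjusted p = 1.0, exact permutation p = 0.0286). The counts were 0 of 1 and 0 of 5 for 5 genes of regulatory T cells, 0 of 6 and 1 of 13 for 16 further T cell genes, and 1 of 4 and 0 of 2 for 11 further NK cell genes. The gene behind the T cell count was Cd96 in the kidney (0.88 ± 0.37, limma p = 0.0436, adjusted p = 1.0, exact permutation p = 0.0857) and behind the NK cell count Klrb1c, the NK1.1 antigen, in the liver (0.75 ± 0.27, limma p = 0.0204, adjusted p = 0.370, exact permutation p = 0.0571). Of 9 genes of the lymphoid niche, 2 of 5 were higher in the liver and 0 of 6 in the kidney, again beside 8.65% and 1.75% of all genes. Of the 5 in the liver, 2 reached the filter only through A94, and 1 was below 0.05 without A94. Cxcl13, the chemokine that draws B cells into follicles, was 0.759, 0.806, 2.02 and 1.15 FPKM in L63, L65, L86 and L104 and 3.97, 2.86, 5.87 and 2.33 FPKM in A75, A91, A94 and A115 in the liver. All ADV livers were above all LD livers, by 1.60 ± 0.35 (limma p = 0.00114, adjusted p = 0.269, exact permutation p = 0.0286), and without A94 limma gave an adjusted p = 0.161. Ccl21a, a chemokine for T cells and dendritic cells, had 1.55 ± 0.69 (limma p = 0.0493, adjusted p = 0.422, exact permutation p = 0.171).

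Markers of other cells were also high in A94. The macrophage genes summed to 112 to 181 FPKM in the LD mice, 412 FPKM in A94 and 169 to 228 FPKM in the other ADV mice in the liver, and 6 of 9 were higher at an unadjusted limma p under 0.05 (Clec4f, Vsig4, Adgre1, Cd163, Csf1r and Lyz2), where 8.65% of all genes were. Without A94 6 were below 0.05, where 8.80% of all genes were. At an adjusted p under 0.05 0 were, and the lowest limma adjusted p was 0.296. In the kidney they summed to 46.3 to 149.5 FPKM in the LD mice, 318 FPKM in A94 and 55.9 to 154 FPKM in the other ADV mice, with 0 of 5 below 0.05 and Clec4f, the Kupffer cell lectin, at 0 in all kidneys. The neutrophil genes summed to 7.36 to 13 FPKM in the LD mice, 117 FPKM in A94 and 4.81 to 16.7 FPKM in the other ADV mice in the liver and to 1.77 to 4.07 FPKM in the LD mice, 27.1 FPKM in A94 and 2.65 to 8.56 FPKM in the other ADV mice in the kidney, with 0 of 7 and 0 of 4 below 0.05. The proliferation genes summed to 1.01 to 1.49 FPKM in the LD mice, 15.2 FPKM in A94 and 0.880 to 3.25 FPKM in the other ADV mice in the liver and to 1.76 to 4.55 FPKM in the LD mice, 13.2 FPKM in A94 and 1.44 to 24.2 FPKM in the other ADV mice in the kidney, where A115 was the highest, with 0 of 5 and 1 of 6 below 0.05. In the kidney 1.75% of all genes were higher at this threshold, and without A94 0 of the 6 were. Of the 5 in the liver, 2 reached the filter only through A94. The erythroid genes summed to 232 to 299.7 FPKM in the LD mice, 429 FPKM in A94 and 213 to 292 FPKM in the other ADV mice in the liver and to 156 to 352 FPKM in the LD mice, 835 FPKM in A94 and 114.8 to 633 FPKM in the other ADV mice in the kidney. Of 4 tested in the liver, 1 (Alas2, −0.54 ± 0.16, limma p = 0.00708, adjusted p = 0.313, exact permutation p = 0.0571) was lower, where 3.13% of all genes were, and 0 were higher, and in the kidney 0 of 4 were higher. The part of these cells in the lymphocyte values was not tested.

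Of the lists for plasmacytoid dendritic cells, fat, adrenal gland and pancreas, 0 to 3 genes reached the filter in an organ. In the liver 0 of 0 tested genes of plasmacytoid dendritic cells, 0 of 2 of fat, 0 of 2 of adrenal gland and 0 of 1 of pancreas were higher at an unadjusted p under 0.05. In the kidney these counts were 0 of 2, 0 of 3, 0 of 1 and 0 of 0. They were 0 of 7 in the liver for the hepatocyte genes and 0 of 7 in the kidney for the kidney tubule genes. Of the 5 dendritic cell genes, A94 was the highest mouse for 4 in the liver and 3 in the kidney, where it was so for 49.7% and 26.2% of all genes tested. These 5 genes summed to 0.248 to 0.371 FPKM in the LD livers and to 1404 to 1578 FPKM in the LD kidneys. Which cells of the kidney made this RNA was not tested. On the log2(FPKM + 0.1) scale A94 was at least 4-fold above the LD mean for 0 genes of these lists in the kidney and for 1 in the liver, which was Umod. Pancreas genes summed to 4.93 FPKM in the liver of A75, and to 0.137 to 0.250 FPKM in the LD livers and 0.243 FPKM in A94. The hepatocyte genes summed to 58033 FPKM in the liver of A94, inside the range of the LD livers (57760.5 to 71379 FPKM). The kidney tubule genes summed to 20903, 31911, 23089 and 47299 FPKM in the kidneys of A75, A91, A94 and A115 and to 29343 to 41826 FPKM in the LD kidneys. In A94, 4 of these 7 genes were above the LD mean.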

How the data were processed

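Poly(A)-enriched, strand-specific libraries of liver and kidney from 8 mice were sequenced as paired ends by 2 providers, and which library came from which is not given in the sources used here. The authors trimmed the reads with Trimmomatic, aligned them to mm10 with STAR 2.5.4b (bcl2fastq and HOMER are also named in the submitters' processing notes), removed reads of low mapping quality and quantified 32989 canonical genes per organ with HOMER. The deposited values are FPKM, in columns headed RPKM, scaled by the library total, and fragments recovered from them came out in steps of 0.5 for all values (tolerance 0.01). Here log2(FPKM + 0.1) was tested with limma 3.58.1 (R 4.3.3, trended prior), ADV against LD with n = 4 each, in each organ separately, for genes with a mean above 0.5 CPM (fragments before division by length), with Benjamini-Hochberg adjustment over all genes tested. The organs were compared in 1 fit of 16 libraries. A fold change on this scale understates that of low genes. For single genes, all 70 assignments of the mice gave an exact permutation p (two-sided). The fits were tested on simulated data. Floors are 3 fragments and cover counting error only. Liver and kidney of the same mouse are a pair in the organ comparison: deviations from the group means correlated with r = 0.147, 0.117, 0.185 and 0.0982 in the LD mice and −0.0242, 0.334, 0.553 and 0.0423 in the ADV mice over 12319 genes. Alternatives were other pseudocounts, filters and scalings, no trend, limma-voom, 1 fit of both organs, the replicate block and leaving out each mouse. The 47 members and the 18 other gene lists were chosen with earlier results of these data known. Of the other lists 16 genes, among them immunoglobulin and T cell receptor constant genes, were not matched by symbol and were not analysed here. All 8 values of an organ are given for the receptor chains, Cd4, Cd8a, Ms4a1 and Ptprc, for the 4 B cell and the 4 T and NK cell members with the smallest limma p, for the 3 members with the highest mean FPKM and for members without overlap, and up to 3 genes with the smallest limma p could be named from each other list. Other genes named were chosen after their values were seen. A marker gene of the lists is not reported here and was left out of them. Nothing in the labels says more of the mice than that they are separate animals, so that p-values measure the spread between them.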

Additional observations from a re-analysis of the deposited data

Results flagged for a closer look

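In groups of 4 mice, a mouse was marked when its gap to the nearest other mouse exceeded, as a share of the group's range, Dixon's 95% critical value for 4 values, which chance gives in about 5% of groups. A94 was marked among the ADV mice for the summed FPKM of the B cell genes (139 for liver and 185 for kidney), of the T and NK cell genes (69.1 and 109) and of the shared genes (161 and 242). Over all 47 members it was marked as the highest ADV mouse for 43 in the liver and 24 in the kidney, where it was so for 11.7% and 1.48% of all genes tested, and the genes share their library, so that these marks are not independent. Among the named genes of the liver, the FPKM in A94 were Ms4a1 12.6, Cd79a 19.8, Cd79b 19.6, Cd37 6.16, Pou2af1 15.1 and Mzb1 33.2 for B cell genes, Cd3d 3.40, Cd3e 1.85, Cd3g 5.47, Cd247 0.911, Cd4 1.75, Cd8a 1.13, Icos 1.16, Lck 3.68 and Il7r 1.64 for T and NK cell genes and Cd52 113, Ptprc 11.6, Ptprcap 9.85 and Coro1a 26.3 for shared genes. In the kidney they were Ms4a1 7.03, Cd79a 21.6, Cd79b 17.7, Cd22 7.11, Cd37 10.1, Btk 2.87 and Mzb1 54.9 for B cell genes and Cd3e 5.58, Cd247 2.07, Cd8a 1.90 and Zap70 2.69 for T and NK cell genes. Of the LD mice, L65 was marked in the liver for Ms4a1 (0.574 FPKM) and Cd79b (0.944 FPKM), and L86 in the kidney for Cd72 (3.06 FPKM). Among the members without full values, LD kidneys were also marked for Pax5 (highest in L63, 0.0645 FPKM), Fcrla (lowest in L63, 0.0934 FPKM), Cd6 (lowest in L65, 0.116 FPKM) and Skap1 (lowest in L86, 0.374 FPKM).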

How the results depend on the processing

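The count of members with an unadjusted limma p under 0.05 in the liver, 2, was 1 with a pseudocount of 0.5 or 1, with a mean FPKM above 1, with limma-voom on recovered fragments or with both organs in 1 fit, and 4 with no filter. In the kidney 2 became 1 with a mean FPKM above 1 or limma-voom. The count for kidney minus liver, 5, was 3 with a mean FPKM above 1, 8 with quantile normalization and 26 with the replicate block, and the interaction count, 1, was 0 with quantile normalization and 2 with limma-voom or the replicate block. The block pairs liver and kidney of a mouse and applies to these comparisons of the organs, and within an organ each mouse gives 1 library. Leaving out each mouse in turn gave 1 to 6 members in the liver, 1 to 12 in the kidney (most without A115), 4 to 20 for kidney minus liver (most without A94) and 1 to 2 for the interaction, and a kidney B cell median of −0.25 to 1.61. Of all genes, 37.1% were below 0.05 in the kidney without A115 and 69.1% differed between the organs without A94. The cause was not tested. The medians of the B cell genes in the liver and of the T and NK cell genes in both organs were above 0 under every setting run. With a mouse left out and the libraries also scaled by the median ratio, a combination chosen after seeing the data, the counts without A115 were 7 in the liver, 8 in the kidney and 2 for the interaction, and without A94 the liver count was 3, the kidney minus liver count 11 and the kidney B cell median −0.23. The scaling by the median ratio moved the median of all liver genes from 0.096 to −0.002, and Zap70 in the liver to −0.048 (−0.094 with quantile normalization and −0.029 with the median ratio without A115). Gzmb in the liver was 0.0059 and 0.040 with pseudocounts of 0.5 and 1, and Gzmk in the kidney −0.077 with limma-voom. Kidney log2 differences that changed sign when a mouse was left out ranged, per gene, as Ms4a1 −0.27 to 1.33, Cd79a −0.71 to 1.88, Cd79b −0.35 to 1.27, Blnk −0.27 to 0.32, Pou2af1 −0.14 to 1.76, Spib −0.23 to 1.5, Mzb1 −0.92 to 2.11, Cd3d −0.37 to 0.95, Cd2 −0.16 to 1.26, Cd5 −0.21 to 1.12, Zap70 −0.027 to 1.57, Nkg7 −0.036 to 1.55, Il2rb −0.070 to 1.49 and Skap1 −0.47 to 0.53. With the median ratio scaling as well, they were without A94 −0.24 for Ms4a1, −0.79 for Cd79a, −0.31 for Cd79b, −0.22 for Blnk, −0.12 for Pou2af1, −0.25 for Spib, −1.0 for Mzb1, −0.34 for Cd3d, −0.12 for Cd2, −0.22 for Cd5, −0.091 for Zap70, −0.021 for Nkg7, −0.064 for Il2rb and −0.43 for Skap1. Other ranges were Gzmb −0.31 to 0.084 in the liver, Tcf7 −0.029 to 0.50 in the liver, Thy1 0.012 to 1.08 in the liver, Zap70 −0.030 to 0.11 in the liver, Gzmk −0.0089 to 1.14 in the kidney and Klrd1 −0.28 to 0.079 in the kidney, and with the median ratio scaling without A94 Tcf7 was −0.058 and Thy1 −0.014 in the liver. Of the values for single genes, 46 reversed, 14 lost and 38 gained an unadjusted p under 0.05 and 1313 kept direction and side of the threshold. Members below about 0.5 FPKM rest on few fragments.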
